A study of Mus musculus with 2 samples.

Results

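The genes described here encode the ADAM proteases, the related ADAMTS proteases and the ADAMTS-like proteins of mouse gut stromal cells. Members were chosen by symbol, with earlier results of these data known, and Adam23 was left out by name. The set took every other gene in both raw count tables beginning with Adam and a number, or reading Adamts or Adamtsl and a number. This gave 37 members among 16098 genes listed for both tissues, namely 15 ADAM, 17 ADAMTS and 5 ADAMTS-like genes. Of these, 31 had at least 100 unique molecular identifiers (UMIs, each marking 1 captured RNA molecule) over both tissues and were found in at least 2% of the cells of some type. The other 6 (Adam1a, Adam2, Adam4, Adam8, Adamts8 and Adamts20) had 20 to 98 UMIs each and reached at most 3.42% of the cells of any type. A further 5 matching symbols were listed for 1 tissue only, with 29 UMIs for Adam28 in the colon and 25, 20, 14 and 9 UMIs for Adam21, Adam30, Adam7 and Adamts13 in the small intestine.

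The study used droplet single-cell RNA sequencing to profile the stromal cells of healthy untreated mice, giving 1 library from the colon and 1 from the small intestine. After removal of the epithelium collagenase and dispase were used for 60 minutes on the colon and 45 minutes on the small intestine, and live cells without surface CD45 or EpCAM were sorted. The 2 groups therefore differed in digestion time as well as in tissue, and the 2 cannot be told apart. The strain, sex, age and number of the mice are not stated in the labels.

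ADAM proteins are membrane-anchored metalloproteases. The active ones cut the extracellular part off other membrane proteins, a step called shedding that frees growth factor and cytokine ligands and starts Notch receptor signalling. ADAMTS proteins lack the membrane anchor, carry thrombospondin repeats and act in the extracellular matrix, where different members cut proteoglycans such as versican, trim the propeptides of fibrillar collagens, or act on fibrillin networks and cartilage oligomeric matrix protein (COMP). ADAMTS-like proteins have the thrombospondin repeats without the protease domain, and several bind fibrillin microfibrils. Fibroblasts, the main matrix producers of the gut wall, are known to make many of these proteins.

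The promoters of 4 members are printed because these genes stand for the 2 patterns that recur below. Adamts1 and Adamts9 had their highest level among the 6 compared labels in blood endothelial cells of both tissues. Adamts12 and Adamts17 were higher in all fibroblast labels of the small intestine, Adamts17 only just so in PDGFRa-high subepithelial fibroblasts. Each sequence is the stretch of 250 bases just before a RefSeq transcription start (GRCm38.p6), written on the gene's own strand. The RefSeq gene reaches further upstream for Adamts9 (to 92944450, past the window) and Adamts17 (from 66839699, inside the window). Adamts1 lies at chr16:85803114-85803363 (minus strand), Adamts9 at chr6:92943535-92943784 (minus), Adamts12 at chr15:11064523-11064772 (plus) and Adamts17 at chr7:66839485-66839734 (plus). Capitals mark matches, on either strand, to any of 5 motifs.
Adamts1: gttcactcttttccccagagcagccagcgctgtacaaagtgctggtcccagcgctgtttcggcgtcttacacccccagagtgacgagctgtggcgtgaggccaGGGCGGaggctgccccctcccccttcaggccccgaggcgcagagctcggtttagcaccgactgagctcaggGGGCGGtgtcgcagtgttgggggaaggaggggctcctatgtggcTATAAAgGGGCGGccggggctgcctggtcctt
Adamts9: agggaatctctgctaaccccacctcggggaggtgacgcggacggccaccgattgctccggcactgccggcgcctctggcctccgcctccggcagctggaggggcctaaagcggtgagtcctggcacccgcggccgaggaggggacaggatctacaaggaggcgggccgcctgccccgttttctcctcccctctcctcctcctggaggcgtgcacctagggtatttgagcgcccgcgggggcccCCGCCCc
Adamts12: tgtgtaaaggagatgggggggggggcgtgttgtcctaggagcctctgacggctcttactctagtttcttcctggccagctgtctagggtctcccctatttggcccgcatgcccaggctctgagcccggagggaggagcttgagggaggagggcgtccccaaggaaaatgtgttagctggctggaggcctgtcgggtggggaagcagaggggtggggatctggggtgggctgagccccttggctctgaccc
Adamts17: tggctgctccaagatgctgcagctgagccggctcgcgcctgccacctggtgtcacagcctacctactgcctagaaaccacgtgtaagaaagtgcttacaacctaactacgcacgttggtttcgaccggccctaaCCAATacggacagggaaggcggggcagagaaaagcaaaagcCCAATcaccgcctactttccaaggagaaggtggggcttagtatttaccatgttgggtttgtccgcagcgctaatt

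The motifs were the TATA box (TATAAA, in 12.4% of 32851 promoters of the same length), the GC box (GGGCGG, 32.7%), the CCAAT box (CCAAT, 33.8%), the AP-1 motif (TGANTCA, 6.75%) and a forkhead motif (TGTTTAC, 3.17%). No motif overlapped another in these 4 windows. The Adamts1 window held 1 TATA box and 3 GC boxes, the Adamts9 window 1 GC box on the opposite strand, the Adamts17 window 2 CCAAT boxes and the Adamts12 window none of the 5. Thus neither pair shared a full set of motifs. A promoter entry was found for 20 of the 37 members (22 entries), with 4 to 39 CpG dinucleotides per window and a median of 17, against a median of 6 over all promoters.

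Cells were grouped by the labels the authors deposited, of which 6 had at least 50 cells in both tissues. Fibroblasts fell into CD81- fibroblasts (CD81- FBs, 3631 colon and 2823 small intestinal cells), CD81+ trophocytes (875 and 1913) and PDGFRa-high subepithelial fibroblasts (SEMFs, 1105 and 1109). The others were smooth muscle cells (SMCs, 125 and 468), lymphatic endothelial cells (LECs, 217 and 2498) and blood endothelial cells (BECs, 53 and 524). Levels are a gene's share of the UMIs of its type, scaled to 1000000 (CPM), and since the kit reads the 3′ end of each RNA they do not scale with transcript length. Total depth was 40684070 UMIs over 6018 colon cells and 58134526 UMIs over 9359 small intestinal cells, with median depths per type from 3652 to 7807 UMIs per cell, and 21 barcodes occurred in both libraries.

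Marker genes mostly followed the labels, with exceptions that bear on the members. All 6 lymphatic, 6 smooth muscle and 8 SEMF markers were highest in their own label in both tissues, and so were 5 of 6 trophocyte markers. Of the blood endothelial markers 6 of 7 (colon) and 4 of 7 (small intestine) were highest in BECs, and of the CD81- fibroblast markers 3 of 4 and 2 of 4 in CD81- FBs. The small intestinal SMC label also carried CD81- fibroblast markers, summing to 9756 CPM against 1506 CPM in colon SMCs. Fibroblast transcripts were present in colon endothelium: 7 fibroblast genes stood at 8.65 to 12.0% of their fibroblast level in colon LECs and 12.7 to 28.7% in colon BECs, against 2.29 to 2.76% and 1.06 to 1.61% in the small intestine. Pericyte markers were higher in the small intestine in the 5 labels other than BECs, summing for example to 824 against 63.0 CPM in CD81- FBs, 1241 against 154 CPM in SEMFs and 1273 against 619 CPM in SMCs (Notch3 was at 0 in colon SMCs). In BECs they were higher in the colon, at 171 against 25.1 CPM (Cspg4 was at 0 in colon BECs). Also higher in the small intestine were markers of interstitial cells of Cajal in SEMFs (421 against 166 CPM). Their part in the members' ratios was not tested. The listed epithelial markers summed to at most 3.71 CPM and glial markers to at most 5.63 CPM in any type.

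Tissue ratios are given as the log2 of colon CPM over small intestine CPM, centred on the median gene of each label and called relative ratios. That median lay below 0 in every type, by 0.11 (trophocytes) to 0.33 (SEMFs) log2 units, with -0.16 for all fibroblasts pooled. A member was counted as higher in a tissue where both libraries together held at least 50 UMIs, the relative ratio was at least 1 log2 unit in size and its exact 95% interval lay on one side of 0. With 1 library per tissue there is no replicate check and no p-value, and all intervals cover counting error only.

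Most members that differed between the tissues were higher in the small intestine, in fibroblasts, smooth muscle and endothelium alike. In all fibroblasts pooled, 14 of 34 members with enough UMIs were higher in the small intestine, where 7.22% of 14502 genes were, and 1 (Adamts18) was higher in the colon, where 10.2% of genes were. The pools differed in make-up, with trophocytes 875 of 5611 colon and 1913 of 5845 small intestinal fibroblasts. Pooled ratios therefore depend on make-up as well as on level. With the fibroblast labels weighted equally, 9 of the pooled ratios counted as different moved beyond their interval and 6 did not. Adamtsl1 was counted when pooled (-1.24) and in SEMFs (-1.52), but not in trophocytes (-0.60) or CD81- FBs (0.14). The median relative ratio of the 34 members was -0.59 and 76.5% of them lay below 0, against 50% of genes by construction.

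The same lean was seen in each label, but 2 of the labels carry limits. The small intestinal SMC label also holds CD81- fibroblast markers, so its counts cannot be assigned to smooth muscle alone. The BEC count rests on 3 members, of which 1 passed in both of the colon cell classes compared below. CD81- FBs had 10 of 28 members higher in the small intestine (7.18% of genes) and 1 higher in the colon (9.97%). Trophocytes had 9 of 26 (7.4%) and 3 (6.72%), and SEMFs 12 of 28 (7.82%) and 2 (9.7%). In SMCs 7 of 18 were higher in the small intestine (11% of genes) and none in the colon (6.28%). LECs had 6 of 21 (7.76%) and 2 (6.94%), and BECs 3 of 9 (9.45%) and none (7.54%). Adam9, Adam10, Adam15 and Adam17, the broadly expressed sheddases, were not among these in any label, but without centring Adam9 and Adam10 passed the limit in SEMFs, with plain CPM ratios 2.45-fold and 2.20-fold higher in the small intestine.

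**Figure D1:**
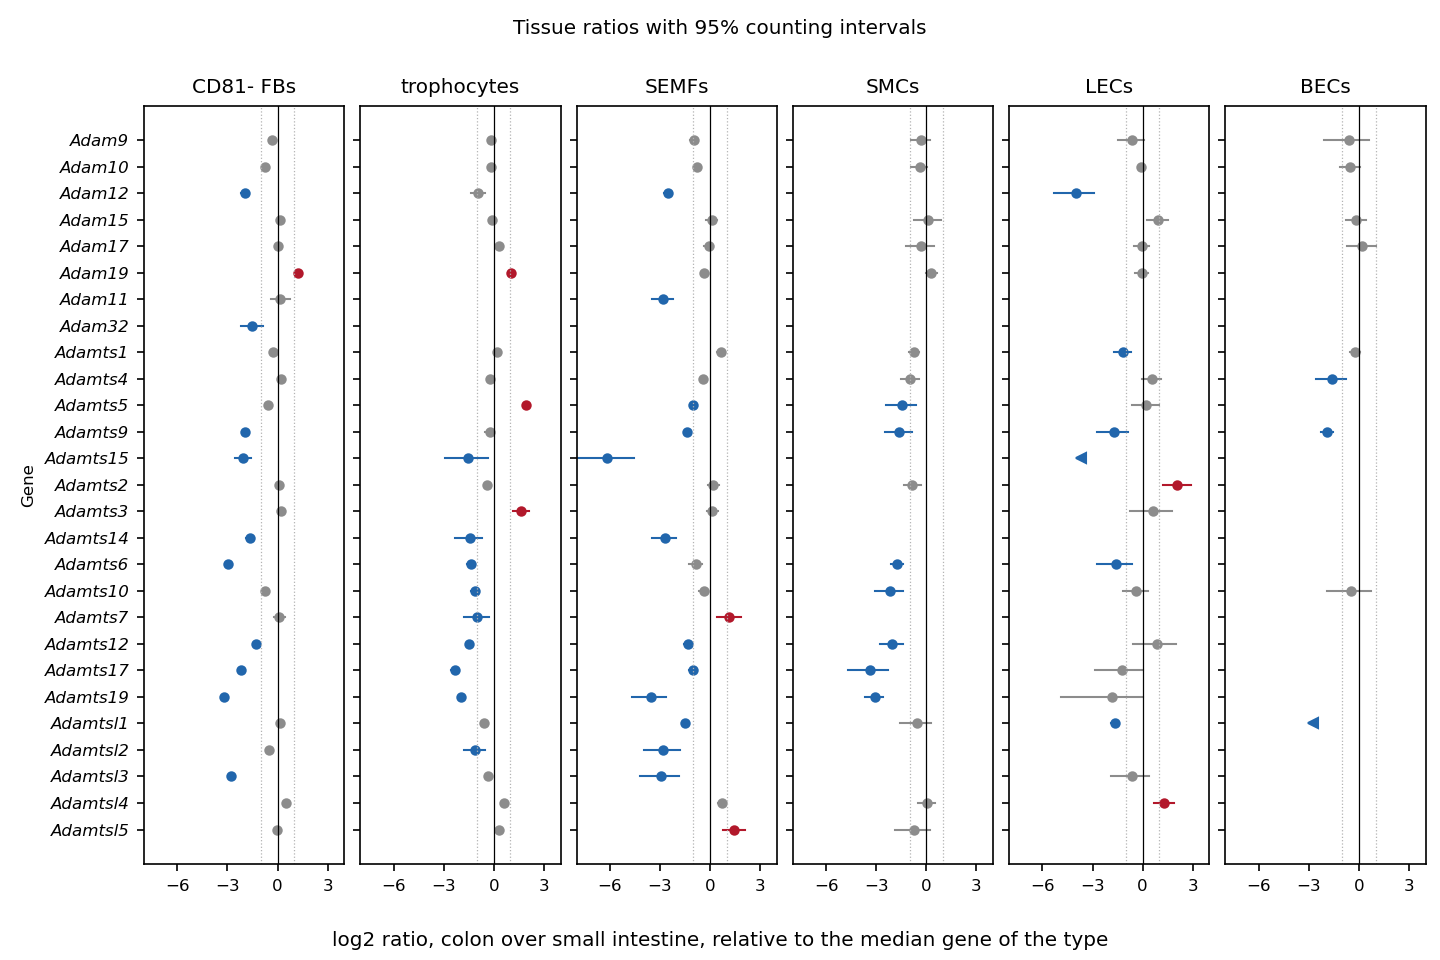
Relative log2 ratio of colon over small intestine (x axis, with the label's median gene at 0) for members counted as different in some label and for Adam9, Adam10, Adam15 and Adam17, with 1 panel per cell type. Points are ratios and bars exact 95% counting intervals, blue where higher in the small intestine, red where higher in the colon and grey otherwise; dotted lines mark 1 log2 unit, triangles are bounds where the colon held no UMI, and the bar of Adamts15 in SEMFs runs past the left edge. Most coloured points lie left of 0, the lowest being Adamts15 in SEMFs at -6.15.

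Many members are long genes, and gene span moved with the tissue ratio across all genes. Among genes of at least 100 kb, 19.3% of 2065 were higher in small intestinal fibroblasts, against 5.79% of 5854 genes of 20 to 100 kb and 4.65% of 6411 shorter genes. By the same classes, 9 of 14, 3 of 11 and 2 of 9 members were higher there. These shares were above those of all genes, but the 2 shorter classes rest on 3 and 2 members. Among them are Adam1a (16 colon and 46 small intestinal fibroblast UMIs), which shares exons with Mapkapk5, and Adam8 (15 and 49). The part of span in the members' ratios was not tested.

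**Figure D2:**
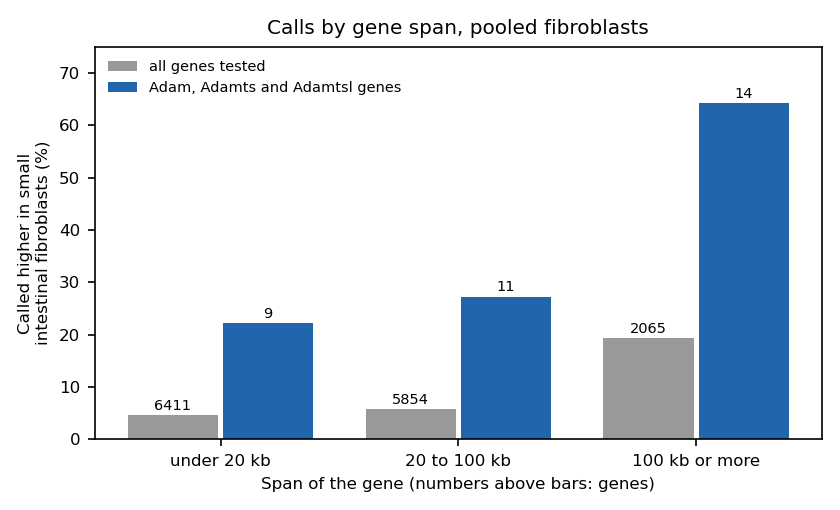
Percentage of genes counted as higher in small intestinal fibroblasts (y axis) by the genomic span of the gene (x axis), for all genes tested (grey) and for the members (blue), with the number of genes above each bar. In the longest class the bars stand at 19.3% and 64.3%.

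Where a member was most abundant was often shared by both tissues. Of 30 members with at least 50 UMIs in each library, 19 (63.3%) had the same leading label, that is the label with the highest CPM, against 45.5% of 13108 genes. The number of members was lower with only Y-linked colon cells, as given below under the dependence on processing. In the colon 7 members led in CD81- FBs (9.48% of genes did), 7 in trophocytes (12.2%), 7 in SEMFs (18.1%), 2 in SMCs (17.2%), 1 in LECs (20.3%) and 6 in BECs (22.8%). In the small intestine the numbers were 9 (7.78%), 4 (8.61%), 8 (33.2%), 3 (13.2%), 2 (20.2%) and 4 (17%). CD81- FBs thus led for a larger share of the members than of all genes in both tissues. Some colon leads rest on very few molecules: Adam5 and Adam32 led in colon BECs with 1 UMI each and Adamts7 with 4. Adamts15, 1 of the 2 members leading in colon SMCs, held 2 UMIs there.

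**Figure D3:**
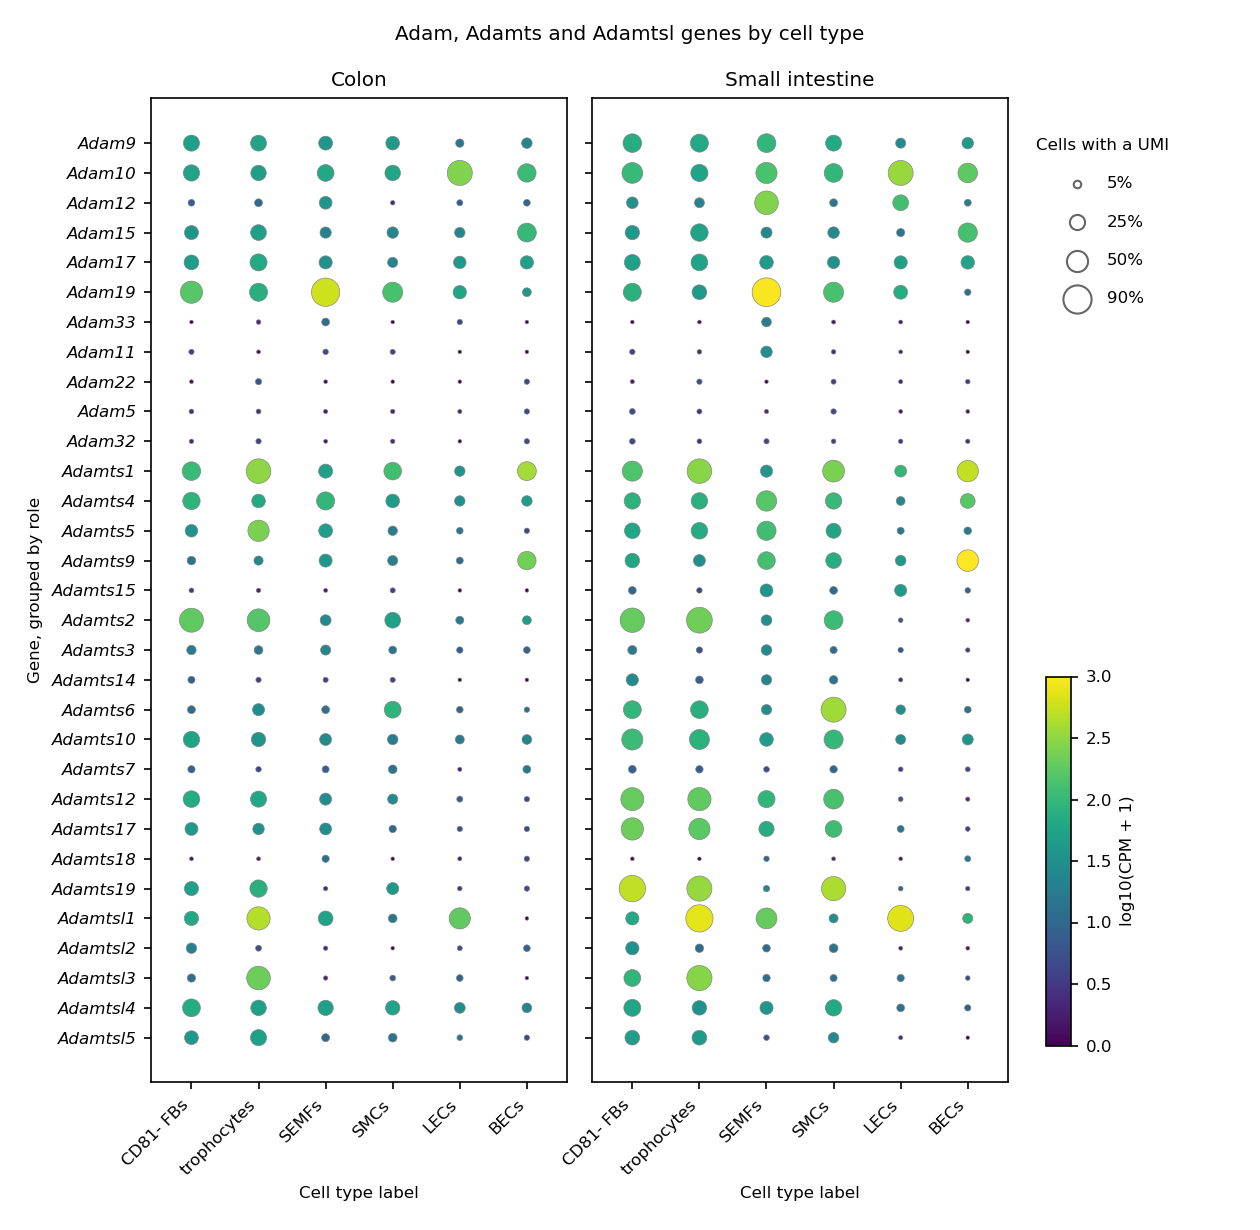
Level of the 31 described members (rows, grouped by role) in the 6 cell type labels (columns) of the colon and the small intestine. Colour is log10(CPM + 1) and dot area grows with the percentage of cells holding a UMI; Adam19 in SEMFs is among the brightest dots in both panels, with 585 and 929 CPM.

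Among the sheddases, the best known are ADAM10, which starts Notch cleavage, and ADAM17, which frees tumour necrosis factor and epidermal growth factor receptor ligands. Adam17 (chr12:21323509-21373632, GRCm38) was spread evenly and was nearly equal in the tissues. Its level ran from 20.7 CPM (SMCs) to 62.8 CPM (trophocytes) in the colon and from 32.1 to 54.2 CPM, in the same 2 labels, in the small intestine. The relative ratio in all fibroblasts pooled was 0.01 (interval -0.09 to 0.10). Its exons overlap those of Iah1 on the other strand.

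Adam10 (chr9:70678997-70780229) was instead highest in lymphatic endothelium of both tissues. LECs held 271 CPM in the colon (exact Poisson interval 241 to 304) against 344 CPM in the small intestine (334 to 355), and BECs came next with 108 and 179 CPM. Fibroblasts stood at 54.6 and 91.9 CPM. Its level was therefore highest outside the fibroblasts, and the tissue ratio in LECs was -0.10 (-0.27 to 0.08).

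Adam15 (chr3:89338542-89349996), a sheddase long studied in endothelium, led in BECs. It reached 100 CPM in colon BECs (27 UMIs, 66.0 to 146 CPM) and 130 CPM in small intestinal BECs (115 to 146), against 34.5 and 41.4 CPM in fibroblasts. The BEC levels of the tissues were within each other's counting error. Adam9, whose protein is widely expressed, had no single home: it led in colon trophocytes (53.7 CPM, beside 51.5 CPM in CD81- FBs) and in small intestinal SEMFs (93.1 CPM). Its relative ratio in SEMFs was -0.96 and in all fibroblasts -0.40, short of the limit of 1, but without centring the SEMF value passed it (2.45-fold higher in the small intestine).

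Adam19 (chr11:46055992-46147343), whose protein sheds neuregulins and acts in heart development, was the sheddase with the most UMIs (18554 in all) and marked SEMFs. The SEMF level was 585 CPM in the colon against 929 CPM in the small intestine, 3.60 and 7.03 times the next label. A UMI was found in 90.7% and 93.6% of SEMFs (63.9% and 78.1% after thinning each cell to 2000 UMIs). In BECs, where the gene was low, the shares were 7.55% and 3.24% (3.52% and 1.62% thinned), at median depths of 3821 and 3652 UMIs against 6345 and 5510 in SEMFs.

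Outside SEMFs, Adam19 was higher in the colon in both other fibroblast labels. CD81- FBs held 163 CPM in the colon against 80.6 CPM in the small intestine (relative ratio 1.22, 1.14 to 1.30), and trophocytes 76.8 and 40.8 CPM (1.02, 0.84 to 1.19). The trophocyte value fell short of the limit without centring on the median gene, at 1.88-fold. SEMFs leaned the other way without reaching the limit (-0.34), so the gene was more restricted to SEMFs in the small intestine.

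Adam12 (chr7:133883199-134232146), a sheddase known from muscle and from activated fibroblasts, gave the largest sheddase difference. SEMFs held 36.3 CPM in the colon (32.1 to 40.9) against 267 CPM in the small intestine (255 to 280), a relative ratio of -2.55. Small intestinal LECs held 122 CPM, more than the fibroblasts of that library (63.8 CPM), whereas colon LECs had 7 UMIs or 6.57 CPM (ratio -3.97, -5.28 to -2.92). The lymphatic level was thus mostly a small intestinal one, and it rests on 1368 UMIs.

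By share, Adam12 was found in 27.4% of small intestinal LECs and 2.76% of colon LECs (16.7% and 1.37% thinned). In SMCs, where it was lowest, it was found in 5.77% of small intestinal cells and 1 of 125 colon cells, at median depths of 5644 and 5526 UMIs against 4118 and 4545 in LECs. CD81- FBs also differed, with 6.96 and 30.7 CPM (-1.93). Adam33, linked to asthma in genetic studies, was nearly restricted to SEMFs, with 10.5 CPM in the colon against 17.8 CPM in the small intestine, a ratio of -0.43 that did not reach the limit.

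ADAM11 and ADAM22 lack protease activity and are best known as neuronal adhesion proteins and receptors. Adam11 was higher in small intestinal SEMFs, at 29.7 CPM (194 UMIs) against 3.36 CPM in colon SEMFs (25 UMIs; ratio -2.81), and stood at no more than 2.73 CPM in any other label. Adam22 was low everywhere and led in trophocytes of both tissues, with 5.50 and 4.26 CPM (35 and 64 UMIs). Of the ADAMs known mainly from the testis and sperm, Adam5 and Adam32 reached at most 3.82 CPM in any label. Adam32 (chr8:24836140-24948804) was higher in small intestinal CD81- FBs, at 3.77 against 1.13 CPM, and lies 806 bases from Adam9 on the same strand. Adam1a shares exons with Mapkapk5 on its own strand, so its 98 UMIs are uncertain.

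**Figure D4:**
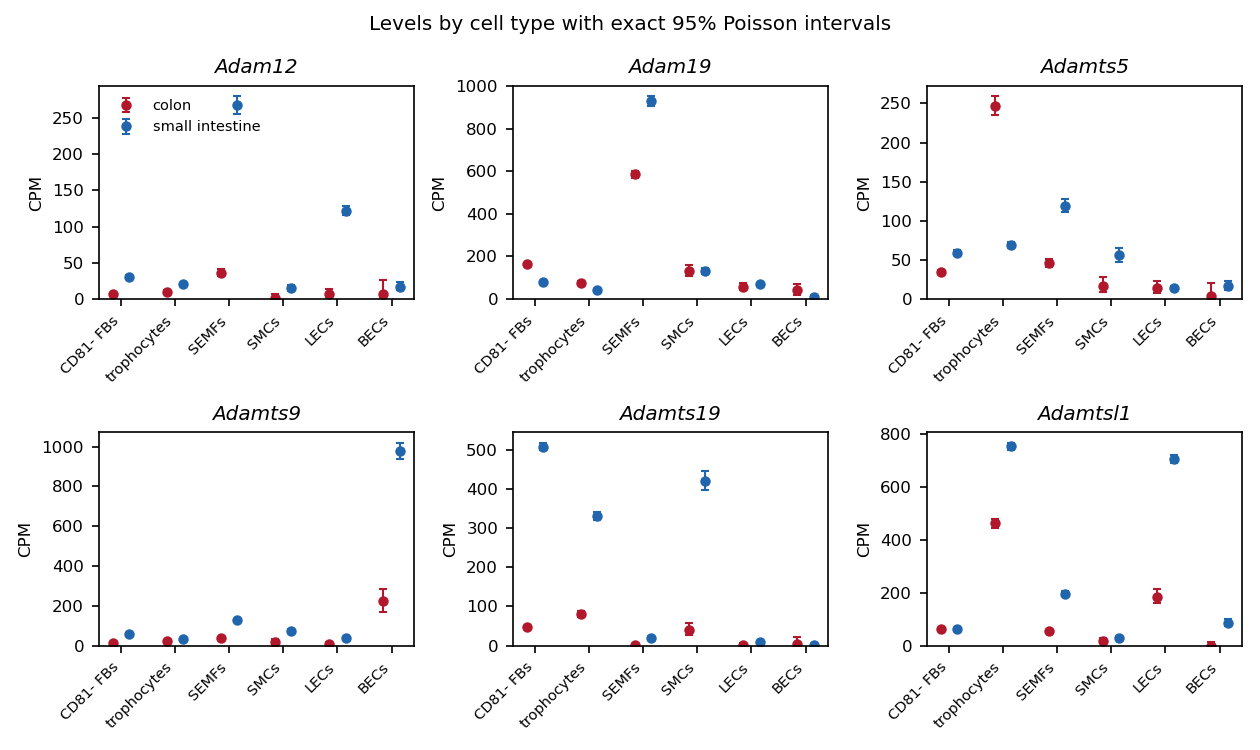
CPM (y axes, each starting at 0) of 6 members in the 6 cell type labels (x axes), red for colon and blue for small intestine, with exact 95% Poisson intervals. Adamts5 is highest in colon trophocytes (247 CPM) and Adamts9 in small intestinal BECs (978 CPM), while Adamts19 is higher in the small intestine in all 3 labels where it is abundant.

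The proteoglycanases cut versican and aggrecan. Adamts1 and Adamts5 are neighbours on chromosome 16, 53.1 kb apart on the same strand, but differed in where they were found. Adamts1 (chr16:85793827-85803113) was highest in BECs among the 6 compared labels, at 389 CPM in the colon (318 to 471) against 534 CPM in the small intestine (504 to 565), a ratio of -0.22 (-0.52 to 0.07). Trophocytes came next with 309 and 290 CPM. Of the colon BECs 39.6% held a UMI (68.2% of trophocytes). The 11 Y-linked cells held none, and the 105 UMIs came from capillary (83) and arterial (22) cells, with none in the 4 venous cells. The 8 colon pericytes held 836 CPM (560 to 1201). In LECs Adamts1 was higher in the small intestine, at 93.6 against 34.7 CPM (-1.18). With only Xist colon cells that ratio was -0.49, short of the limit, and with only Y-linked cells -1.91.

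Adamts5 (chr16:85856173-85901828), the main aggrecan-cutting enzyme of mouse cartilage, went in opposite directions in different fibroblasts. Trophocytes held 247 CPM in the colon (235 to 259) against 68.9 CPM in the small intestine (64.8 to 73.3), the largest colon excess of any member in a fibroblast label (ratio 1.95, 3.85-fold relative to the median gene). SEMFs held 46.1 and 119 CPM (-1.03) and SMCs 16.8 and 56.3 CPM (-1.45). The leading label was accordingly trophocytes in the colon and SEMFs in the small intestine. In all fibroblasts pooled these differences cancelled, with 71.9 and 72.0 CPM.

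Adamts9 (chr6:92772699-92943492), a versican-cutting enzyme needed for vessel and heart development in mice, led in BECs among the 6 compared labels of both tissues and was higher in the small intestine in 5 of them. BECs held 222 CPM in the colon (60 UMIs, 170 to 286) against 978 CPM in the small intestine (937 to 1020), a ratio of -1.90. With only Y-linked colon cells (11 BECs) the ratio was -0.75, short of the limit. The 8 colon cells labelled pericytes, not among the compared labels, held 519 CPM (308 to 820). The level in BECs was 5.73 and 7.70 times that of the next label, SEMFs. The relative ratios in CD81- FBs, SEMFs, SMCs and LECs were -1.97, -1.38, -1.62 and -1.71, while trophocytes, with 24.0 and 30.6 CPM, did not differ beyond counting error. The SMC and LEC values rest on 15 and 11 colon UMIs. Both fell short of the limit in 1 colon class, at -0.89 in SMCs (only Xist cells) and -0.42 in LECs (only Y-linked cells). The small intestinal SMC label also carries CD81- fibroblast markers. Exons of Adamts9 overlap A730049H05Rik and Gm15737 on the other strand.

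A UMI of Adamts9 was found in 37.7% of colon BECs and 51.9% of small intestinal BECs (24.2% and 46.3% thinned), at median depths of 3821 and 3652 UMIs. In trophocytes, a label with low Adamts9 and median depths of 7186 and 7807 UMIs, the shares were 8.23% and 15.1% (3.60% and 5.41% thinned). The colon BEC label pools 45 capillary, 4 arterial and 4 venous endothelial cells, with 185, 108 and 667 CPM of Adamts9 from 42, 2 and 16 UMIs.

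Adamts4 (chr1:171250421-171260637), the other well known aggrecanase, led in SEMFs (94.3 and 159 CPM) and had a pooled fibroblast ratio of 0.00. In the small intestine CD81- FBs and trophocytes held 84.7 and 80.1 CPM, and BECs matched SEMFs. Adamts4 was higher in small intestinal BECs, at 159 CPM against 44.5 CPM (12 UMIs) in colon BECs, a ratio of -1.60. This value turns to 0.40 when the colon is limited to cells with UMIs of Y-linked genes but not of Xist, which leaves 11 BECs.

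Adamts15 (chr9:30899155-30922452), a versican-cutting enzyme, was nearly a small intestinal gene in these cells, with 61 UMIs in the colon and 1000 in the small intestine. SEMFs held 3 UMIs in the colon and 235 in the small intestine (0.403 and 36.0 CPM), a ratio of -6.15 with an interval of -8.44 to -4.59. LECs held no UMI in the colon and 478 in the small intestine (42.6 CPM, 38.9 to 46.6). Against a floor of 3 counts per library the LEC ratio was -3.67 or lower. CD81- FBs, with 1.98 and 9.43 CPM, also differed (-2.04).

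The procollagen N-proteinases trim the amino-terminal propeptides of fibrillar collagens, and their main member was nearly equal in the tissues. Adamts2 (chr11:50602084-50807573) held 184 CPM in colon and 196 CPM in small intestinal CD81- FBs and 155 and 218 CPM in trophocytes, with a pooled fibroblast ratio of -0.10. The count rule placed it higher in colon LECs (16.0 against 4.46 CPM, 17 and 50 UMIs). There its colon level was 10.8% of that in fibroblasts, against 8.65 to 12.0% for the 7 fibroblast genes in that label.

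Of the other 2 enzymes, Adamts14 (chr10:61197112-61273438) was higher in the small intestine in all 3 fibroblast labels. It stood at 7.49 and 26.6 CPM in CD81- FBs (-1.62), 2.51 and 7.39 CPM in trophocytes (-1.45) and 2.69 and 22.4 CPM in SEMFs (-2.73). Adamts3, whose protein activates the lymphatic growth factor VEGFC, went the other way in trophocytes, at 13.5 CPM in the colon against 4.72 CPM in the small intestine (1.62). In SEMFs, where Adamts3 was highest in both tissues, the levels of 23.0 and 26.2 CPM did not differ beyond counting error. The family thus differed between tissues through its less abundant members.

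ADAMTS6 and ADAMTS10 are close relatives that act on fibrillin microfibrils and cell adhesion. Adamts6 (chr13:104287835-104496695) led in smooth muscle, at 89.3 CPM in the colon (69 UMIs, 69.5 to 113) against 369 CPM in the small intestine (347 to 392). The ratio in SMCs was -1.75 and in CD81- FBs -2.94, from 10.5 and 93.3 CPM, while trophocytes differed least of the 3 (28.3 and 78.1 CPM, -1.36). With only Xist colon cells the SMC ratio was -0.89, short of the limit, and with only Y-linked cells -2.05. Small intestinal SMCs held 3.95 times the Adamts6 level of the CD81- FBs of that library, the next label. Adamts10 (chr17:33524204-33553782) was broadly expressed, with 56.1 and 109.8 CPM in CD81- FBs (-0.76, short of the limit) and 35.3 and 84.4 CPM in trophocytes (-1.15). Its largest difference was in SMCs, at 18.1 and 99.4 CPM (-2.16), the next label after CD81- FBs in the small intestine. That difference rests on 14 colon UMIs. The small intestinal SMC label also carries CD81- fibroblast markers, and their part in the SMC values of Adamts6 and Adamts10 was not tested.

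ADAMTS7 and ADAMTS12 cut COMP. Adamts12 (chr15:11064790-11349231) was higher in the small intestine by similar amounts in all 3 fibroblast labels. CD81- FBs held 68.8 CPM in the colon (65.6 to 72.2) against 196 CPM in the small intestine (190 to 203), a ratio of -1.31, and trophocytes 61.6 and 183 CPM (-1.47). SEMFs were lower, at 28.6 and 91.4 CPM, with a ratio of -1.34. SMCs differed most, at 25.9 and 132.6 CPM (-2.06), in the label that carries CD81- fibroblast markers in the small intestine. In LECs and BECs its level was at most 11.0% of that in the fibroblasts of the same library. Adamts7 (chr9:90163069-90208071) was scarce, at most 14.8 CPM in any label. It was higher in the colon in SEMFs (6.86 and 3.99 CPM, 1.11) and higher in the small intestine in trophocytes (3.14 and 6.79 CPM, -1.01). The SEMF value fell short of the limit without centring, at 1.72-fold, and exons of Adamts7 overlap Tbc1d2b on the other strand.

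ADAMTS17, ADAMTS18 and ADAMTS19 form a group with few established substrates, of which ADAMTS17 is tied to fibrillin and short stature and ADAMTS19 to heart valves. Adamts19, on chromosome 18, showed the widest fibroblast difference of the members that passed 100 CPM in a fibroblast label. CD81- FBs held 1186 UMIs or 48.0 CPM in the colon (45.3 to 50.8) and 10263 UMIs or 509 CPM in the small intestine (499 to 519), 9.19-fold relative to the median gene (ratio -3.20). Trophocytes held 80.1 and 331 CPM (-1.94). The leading label was trophocytes in the colon and CD81- FBs in the small intestine.

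A UMI of Adamts19 was found in 21.6% of colon and 78.7% of small intestinal CD81- FBs (8.25% and 51.9% thinned). In LECs the shares were 0.922% and 1.12%, at median depths of 4545 and 4118 UMIs against 6697 and 6977 in CD81- FBs. SMCs held 40.1 and 422 CPM (-3.10), but the small intestinal SMC label carries CD81- fibroblast markers at a level like that of CD81- FBs. Among SMC-labelled cells rich in smooth muscle markers (115 of 125 and 276 of 468) all 7 members stayed higher in the small intestine; the part of fibroblast RNA in these values was not tested.

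Adamts17 (chr7:66839735-67153171) followed Adamts19 in CD81- FBs and trophocytes. It stood at 40.4 and 210.4 CPM in CD81- FBs (-2.17), 31.4 and 171.5 CPM in trophocytes (-2.34) and 28.9 and 72.8 CPM in SEMFs (-1.002). The SEMF value lies at the limit and was -0.68, short of it, with only Xist colon cells. Adamts19 was scarcer than Adamts17 in SEMFs, at 1.34 and 19.9 CPM (10 and 130 UMIs, -3.56). Adamts18 was rare (106 and 94 UMIs), with 11.7 and 7.97 CPM in SEMFs. Its leading label was SEMFs in the colon but BECs in the small intestine, at 15.1 CPM. It was the member higher in colon fibroblasts when pooled (2.70 and 1.34 CPM, 1.17), and the call was lost when the 3 fibroblast labels, or all cells, had equal weight.

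The ADAMTS-like genes held the member with the most UMIs. Adamtsl1 (chr4:85514172-86428385) had 27169 UMIs and was abundant in 2 labels of different lineage, trophocytes and LECs. Trophocytes held 462 CPM in the colon (446 to 479) against 753 CPM in the small intestine (739 to 767), a ratio of -0.60 that did not reach the limit. LECs held 185 CPM in the colon (160 to 213) against 705 CPM in the small intestine (690 to 721), a ratio of -1.68. SEMFs differed as well (54.5 and 196.5 CPM, -1.52), while CD81- FBs were nearly equal, at 61.2 and 64.3 CPM. The LEC level exceeded that of the pooled fibroblasts in both libraries, at 146% and 212% of it.

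By share, Adamtsl1 was found in 50.2% of colon LECs and 76.1% of small intestinal LECs (28.6% and 61.5% thinned), and in 9 of 125 colon SMCs and 7.91% of small intestinal SMCs (2.82% and 3.47%), at median depths of 4545 and 4118 UMIs in LECs and 5526 and 5644 in SMCs. BECs held no UMI in the colon and 190 in the small intestine (86.7 CPM, ratio -2.73 or lower against the floor). Lymphatic markers summed to 1265 CPM in small intestinal BECs, 29.7 CPM in colon BECs and 20691 CPM in small intestinal LECs, and their part in this value was not tested.

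Adamtsl3 (chr7:82335694-82614450) was the clearest trophocyte gene among the members. It stood at 209 CPM in colon trophocytes (198 to 221) and 288 CPM in those of the small intestine (279 to 296), which is 17.9 and 3.14 times the next label. The narrower gap in the small intestine came with CD81- FBs, at 11.7 and 91.5 CPM (-2.76), whereas the trophocyte ratio of -0.35 did not reach the limit. Adamtsl2, whose protein binds fibrillin and latent growth factor complexes, led in CD81- FBs (19.8 and 32.2 CPM, -0.50) and differed in SEMFs (1.21 and 10.6 CPM, -2.80) and trophocytes (4.24 and 10.0 CPM, -1.14).

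Adamtsl4 (chr3:95676201-95687917), a fibrillin-binding protein needed to hold the eye lens, had ratios of 0.50, 0.62 and 0.71 in CD81- FBs, trophocytes and SEMFs, all short of the limit. It was higher in colon LECs, at 27.2 against 13.0 CPM (29 and 146 UMIs, 1.31), where its level was 43.5% of that in colon fibroblasts. Adamtsl5 (chr10:80339110-80348412) was a gene of CD81- FBs and trophocytes with nearly equal pooled levels of 34.9 and 38.4 CPM. In SEMFs, where it was scarce, it was higher in the colon (9.14 and 4.29 CPM, 1.42).

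The colon library held 2700 cells with UMIs of Xist alone and 1751 with UMIs of Y-linked genes alone, so it holds cells of both sexes. Xist is not listed for the small intestine, where 6896 of 9359 cells held Y-linked UMIs. The members were therefore compared between these cell classes within the colon. None of 25 members with enough UMIs differed between them in CD81- FBs (1.25% of genes did) and none of 29 in all fibroblasts pooled (1.1%). In trophocytes 2 of 20 differed (1.86%): Adamts17, with 50.2 CPM in Y-linked and 19.3 CPM in Xist cells (1.397), and Adamtsl1, with 280 and 622 CPM (-1.13). Adam12 in SEMFs (23.1 and 48.0 CPM) was 1 of 21 (1.2%), and Adamts6 in SMCs (72.8 and 154 CPM) 1 of 2 (2.28%). In BECs Adamts1 had 0 UMIs in 11 Y-linked cells and 58 in 22 Xist cells, 1 of 2 (9.18%), and in LECs none of 2 differed (3.23%).

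Each colon class was also compared alone with the small intestine. Both classes are parts of the colon cells that gave the counts, so agreement was partly built in and is no independent check. All 11 members counted in CD81- FBs had the same direction in both classes and 10 passed the rule in both, the exception being Adam32. The numbers passing in both were 8 of 12 in trophocytes, 11 of 14 in SEMFs, 4 of 7 in SMCs, 5 of 8 in LECs and 1 of 3 in BECs. Direction was the same in both classes for all of these except Adamts4 in BECs. No share over all genes is given for the numbers passing in both, so the members cannot be set apart from other genes. For Adamts15 in LECs and Adamtsl1 in BECs both classes held 0 UMIs, so their direction was fixed in advance. Adamts19 in CD81- FBs stood at 49.7 and 50.2 CPM in the classes, both far below the 509 CPM of the small intestine.

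**Figure D5:**
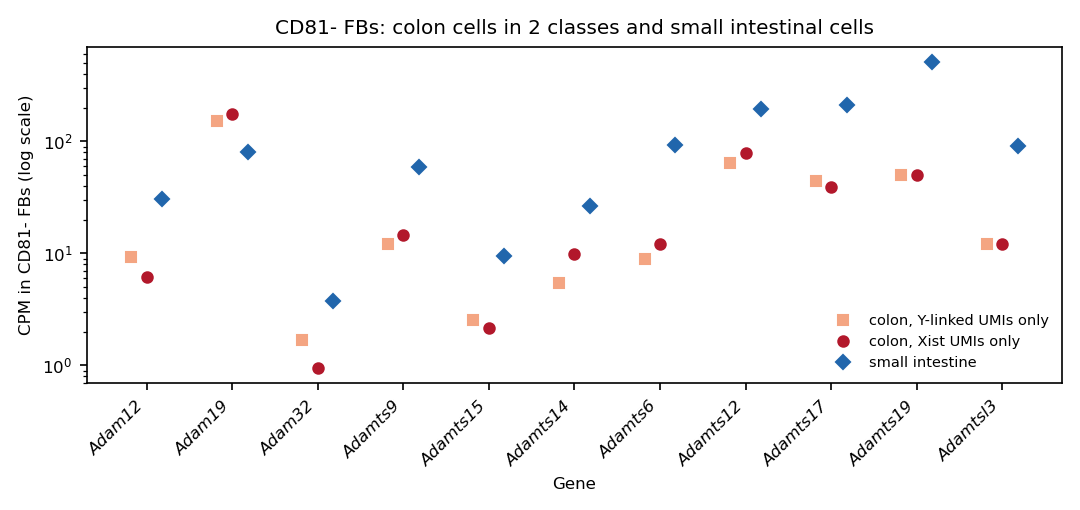
CPM in CD81- FBs (y axis, log scale) of the 11 members counted as different between the tissues (x axis), in colon cells with only Y-linked UMIs, colon cells with only Xist UMIs and all small intestinal cells. The 2 colon symbols lie on the same side of the small intestinal symbol for each gene, above it for Adam19 and below it for the others.

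Proteins that control these enzymes were followed as a list. The list of regulators held 22 genes, of which 20 were listed for both tissues, and in pooled fibroblasts 1 of 19 was higher in each tissue (10.2% of genes were higher in the colon and 7.22% in the small intestine), with a median ratio of 0.20. The one higher in the small intestine was Pcsk5, a proprotein convertase, the class that activates these enzymes, at 388 and 904 CPM (-1.06). Its relative Pcsk6 differed the other way in CD81- FBs (155.5 and 63.3 CPM, 1.503). In SEMFs 3 of 18 regulators were higher in the colon (9.7% of genes), among them 2 tissue inhibitors of metalloproteases, Timp3, the main inhibitor of ADAMTS enzymes, at 218 and 107 CPM (1.36) and Timp1 at 57.0 and 25.9 CPM (1.47).

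In LECs 7 of 20 regulators were higher in the colon (6.94% of genes) and 1 in the small intestine (7.76%). Those higher in the colon included Lrp1, a receptor that clears ADAMTS enzymes (40.4 and 14.6 CPM), and the widespread Timp2 (878 and 473 CPM), in a label where fibroblast genes are also higher. The 1 higher in the small intestine was Tspan14, a tetraspanin that carries ADAM10 to the cell surface, at 52.6 and 199 CPM (-1.67).

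Of 20 matrix substrates and partners, 17 were listed for both tissues, and in pooled fibroblasts 2 of 16 were higher in the colon (10.2% of genes) and 4 in the small intestine (7.22%), with a median of -0.45. Higher in the small intestine were Fbn2 at 9.45 and 55.4 CPM (-2.39), Ltbp2 at 3.56 and 16.2 CPM (-2.03), Ltbp1 at 213.5 and 555 CPM (-1.21), and Col1a1 (-1.02). The colon side held Hapln1, which links hyaluronan to versican, at 43.7 and 1.58 CPM (4.95), and Thbs2 at 101 and 50.2 CPM (1.17). In CD81- FBs the hyaluronan synthases split, Has1 at 7.002 and 112 CPM (-3.80) and Has2 at 41.0 and 21.6 CPM (1.13).

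Of 26 shedding substrates, 25 were listed for both tissues, and in pooled fibroblasts 5 of 24 were higher in the colon (10.2% of genes) and 4 in the small intestine (7.22%), with a median of 0.10. Growth factors stood on both sides. Hbegf (23.1 and 4.22 CPM, 2.62) and Nrg1 (88.2 and 42.9 CPM, 1.20) were higher in the colon, and Ereg (89.6 and 251 CPM, -1.32) in the small intestine. The membrane-bound ephrin Efna5, a substrate of ADAM10, was higher in the small intestine, at 80.8 and 660 CPM (-2.87). Cx3cl1, a chemokine shed by ADAM10 and ADAM17, was low but higher in the colon (6.52 and 1.18 CPM, 2.64).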

How the data were processed

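For each tissue the authors deposited raw UMI counts per gene and cell, values on a natural log scale and a cell label table. The natural log values were checked against the counts: none of 222666 colon and 346283 small intestinal member values differed by more than 1e-06 from the natural log of 1 plus counts per 10000. Cell Ranger 7.1.0, Seurat 4 and mm10 are named, with no role, in the submitters' processing notes; use of strand in counting is not given in the sources used here.

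Counts were summed per library and label (Python 3.11.15, numpy 2.4.6, scipy 1.17.1, pandas 2.3.3). Ratios carry exact conditional binomial intervals, levels exact Poisson intervals; a count of 0 was set to a floor of 3. Shares were also computed after thinning cells to 2000 UMIs, leaving out 69 colon and 343 small intestinal cells. Capillary, arterial and venous labels of the colon were pooled as BECs. Doublets were not removed. Counts were also simulated from the Poisson model that the intervals assume, so variation between cells or mice was not covered. There the intervals held 96.5% of 200 known changes in fibroblasts (14494 genes) and 94.9% of 196 in LECs (10525 genes).

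Members with at least 100 UMIs, found in 2% of the cells of some type, were described, and those counted as different plus Adam9, Adam10, Adam15 and Adam17 were given values. Members and gene lists were chosen with earlier results of these data known. Positions come from GENCODE M21 (GRCm38).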

Additional observations from a re-analysis of the deposited data

Results flagged for a closer look

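Adamts5 differed in opposite directions between cell types of the same tissues. Its relative log2 ratio of colon over small intestine was 1.95 in trophocytes, -1.03 in SEMFs and -1.45 in SMCs, and the difference between the cell types was not tested. Both colon cell classes, Y-linked only and Xist only, gave the same direction in trophocytes (1.94 and 2.10) and in SEMFs (-1.21 and -0.96). In SMCs the value rests on 13 colon UMIs, of which 9 were in Xist cells and 0 in Y-linked cells, and with Xist cells alone it was -0.14.

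Adamts7 likewise stood at 1.11 in SEMFs and -1.01 in trophocytes, a difference that was not tested. These values rest on 51 and 26 UMIs in SEMFs and on 20 and 102 UMIs in trophocytes.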

How the results depend on the processing

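No paired analysis was possible because each tissue has 1 library. Of 427 alternative values for 68 member ratios, 340 moved by less than their interval, 86 moved further and 1 reversed: Adamts4 in BECs, -1.60 in the main analysis, was 0.40 with only Y-linked colon cells (the cause was not tested). Counts of members that differed stayed within 1.5 times under the other settings, except as follows. A minimum of 200 UMIs left 7 in trophocytes (12 in the main analysis) and 8 in SEMFs (14), since fewer genes are tested. Without centring, 11 rather than 7 members were higher in small intestinal SMCs. Without a minimum, 7 rather than 3 differed in BECs, 4 of them higher in the colon. The analyses with only Xist colon cells and with marker-rich SMC cells were chosen after seeing the data. With only Y-linked colon cells, 13 rather than 19 members had the same leading label in both tissues. The share of all genes in that setting is not given here, so whether the members exceed it is not known. Precision is limited by the 53 colon BECs and 125 colon SMCs.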

Other observations

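The 8 colon cells labelled pericytes, too few to compare, held 34676 UMIs in all and were rich in 3 proteoglycanase transcripts. Adamts1 had 29 UMIs or 836 CPM (exact Poisson interval 560 to 1201) in 6 of the 8 cells, Adamts9 18 UMIs or 519 CPM (308 to 820) in 5 cells, and Adamts4 13 UMIs or 375 CPM (200 to 641) in 5 cells. The highest levels among the compared colon labels were 389, 222 and 94.3 CPM.

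The 24 small intestinal cells labelled proliferating, which are not in the comparisons, held Adam10 at 305 CPM (236.5 to 387.5, 20 of 24 cells) and Adam12 at 196 CPM (142 to 264, 16 cells).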
